A study of Homo sapiens with 12 samples.

Results

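The steroid-converting enzymes examined here were the products of 10 genes, AKR1C1, AKR1C2, AKR1C3, HSD17B2, HSD17B4, HSD17B11, HSD3B1, SRD5A1, SRD5A3 and CYP17A1, taken by symbol from the 60314 genes of 2 tables of normalized read counts. RNA sequencing had been run on 2 human prostate cancer cell lines, 22RV1 and C4-2B, in 4 groups of 3 libraries that the series describes as biological triplicates. In each line, cells treated with the oligonucleotide 56-mer at 50 nM were set against control cells without it. Treated and control cultures alike were kept 48 h in RPMI medium without glutamine, with 5% serum, and received 2 mM L-glutamine, so the glutamine is shared by all groups. Both lines are labelled wild type and are established castration-resistant lines, C4-2B derived from LNCaP and 22RV1 from a relapsed xenograft. The series title presents the work as the design of an aptamer that sensitizes prostate cancer to hormone therapy.

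Castration-resistant prostate cancer cells can make their own androgens from adrenal precursors, and the enzymes of this route are studied as a source of resistance to hormone therapy. CYP17A1 forms the precursor dehydroepiandrosterone, HSD3B1 oxidizes it to androstenedione, AKR1C3 reduces androstenedione to testosterone, and the steroid reductases SRD5A1 and SRD5A3 add hydrogen to give dihydrotestosterone or its precursor. SRD5A3 is also known for a step in making dolichol, the lipid carrier of protein glycosylation. Androgens are lost again through AKR1C1 and AKR1C2, which reduce dihydrotestosterone to weak diols, and through HSD17B2 and HSD17B4, which oxidize the active hydroxyl group back to a ketone. HSD17B4 is better known as the multifunctional enzyme of fatty acid oxidation in peroxisomes, and HSD17B11 as a dehydrogenase of lipid droplets that oxidizes androstanediol.

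The libraries held 8847368 to 13740386 reads in 22RV1 with 56-mer, 11834331 to 13586045 in 22RV1 controls, 12277758 to 12508539 in C4-2B with 56-mer and 10245014 to 13627140 in C4-2B controls, as recovered from the normalized values. Reads were found for 28342 to 31010 genes per 22RV1 library and for 20779 to 22686 genes per C4-2B library. Luminal prostate markers (KLK3, KLK2, TMPRSS2, FOLH1, KRT8 and KRT18) were present at 6 of 6 in every group, with a summed level of 1857 to 2018 counts per 1000000 reads (CPM) in 22RV1 libraries and 2935 to 3094 CPM in C4-2B libraries. The 6 leukocyte markers summed to at most 3.02 CPM in 22RV1 and 1.73 CPM in C4-2B, with CD3E at 0 in every group. The 5 endothelial markers summed to 1.75 to 6.56 CPM in 22RV1 and 8.37 to 21.9 CPM in C4-2B, mostly VWF in C4-2B, with KDR at 0 in every group, and the 6 fibroblast markers to 28.7 to 39.8 CPM in 22RV1 and 23.0 to 37.0 CPM in C4-2B, mostly COL1A1. The 8 adrenal or gonadal markers summed to 0.676 to 1.67 CPM in 22RV1, mostly STAR, and 2.24 to 7.75 CPM in C4-2B, mostly CYP11A1 (4.92 CPM with 56-mer and 4.48 CPM in controls), with MC2R and FSHR at 0 in every group. Where a level differs, fewer cells that express a gene and less RNA per cell cannot be told apart in these bulk libraries.

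Apart from CYP17A1 and HSD17B2, which were hardly detected, the enzymes fell into 2 sets. In 1 set the levels were similar or moderately different in both lines, and in the other they differed more. AKR1C3 and HSD3B1 had the wide gaps, and which of them was wider depended on the scaling: the log2 ratio of 22RV1 to C4-2B was 6.44 for AKR1C3 and -6.38 for HSD3B1 as CPM, and 6.15 and -6.67 relative to the median gene. AKR1C3 had 693 reads in the 3 control libraries of 22RV1 and 7 in those of C4-2B. HSD3B1 lay the other way, with 1 read in 22RV1 controls and 72 in C4-2B controls. Of the 8 enzymes whose normalized count reached 10 in at least 3 of the 6 libraries of either line, 4 (AKR1C1, AKR1C2, AKR1C3 and HSD17B11) were at least 2-fold higher in 22RV1 controls with no overlap between the ranges of the 3 libraries, 1 (HSD3B1) was lower in the same sense and 3 (SRD5A1, SRD5A3 and HSD17B4) were neither. AKR1C1, AKR1C3 and HSD3B1 passed this filter in 1 line only, so the filter itself favoured a difference. By the same measure 40.2% of the 21647 genes that passed this filter were higher in 22RV1 and 13.8% were lower. Gaps of this kind were thus common among all genes and not particular to these enzymes. The authors normalized each line in a table of its own, so levels are set side by side across lines with no test. The median of 15527 genes measured in both lines was shifted by 0.29 (log2 of CPM, 22RV1 over C4-2B).

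**Figure D1:**
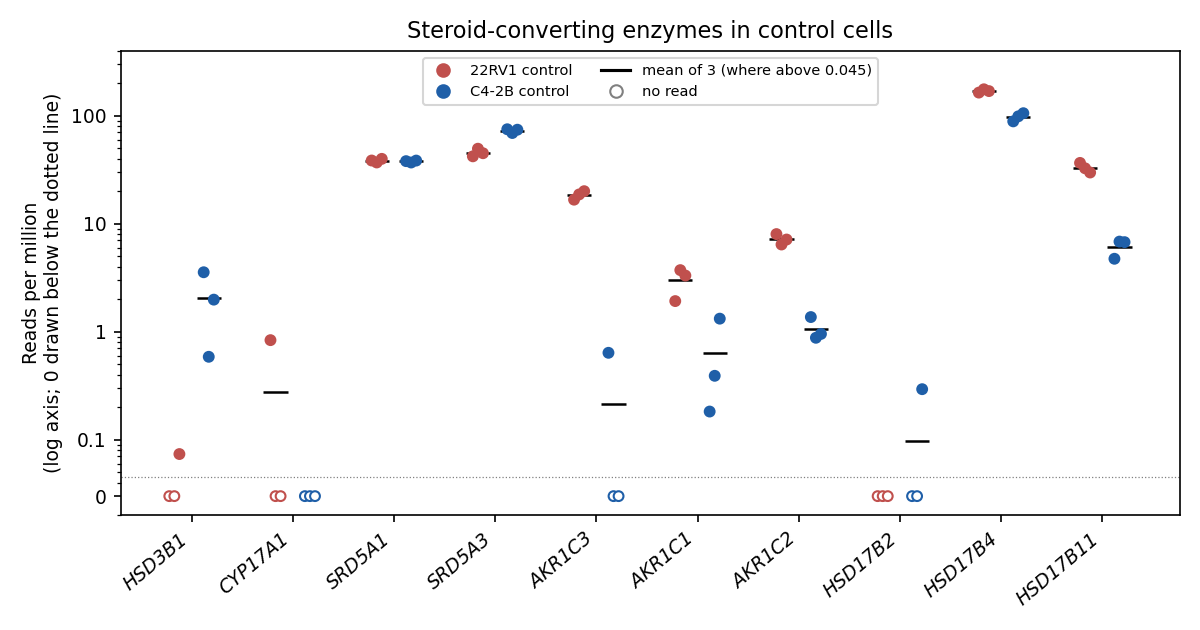
Levels of the 10 enzymes in control cells of 22RV1 (red) and C4-2B (blue), in CPM on a log axis, with 1 point per library, a black line at the mean of 3 libraries and open points for libraries with no read. AKR1C3, AKR1C2, AKR1C1 and HSD17B11 sit higher in 22RV1, HSD3B1 sits higher in C4-2B, and SRD5A1 lies at the same height in both.

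Among the enzymes that form androgens, HSD3B1, which feeds adrenal precursors into the pathway, was seen almost entirely in C4-2B. The 6 libraries of 22RV1 held a single HSD3B1 read, in control 3. In C4-2B, HSD3B1 had 31, 22 and 25 reads in 56-mer libraries, against 39, 6 and 27 reads in controls. The levels were 2.10 ± 0.380 CPM with 56-mer and 2.04 ± 1.48 CPM in controls (SD, n = 3 each), so the C4-2B controls varied more among themselves than the 56-mer libraries did. Pooled over the controls, the ratio of 22RV1 to C4-2B was 0.0129, with an exact 95% counting interval of 0.000323 to 0.0745 that covers counting error only.

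CYP17A1 was not measurable at this depth. Its reads were 1, 0 and 0 in 22RV1 with 56-mer and 10, 0 and 0 in 22RV1 controls, so the 10 control reads all came from 1 library. In C4-2B it had 3, 0 and 0 reads with 56-mer and none in the controls, which allows up to 0.0861 CPM over these 3 libraries (3 reads of the total). In GENCODE 29, 26.6% of the 75-base windows of the CYP17A1 coding sequence are also in exons of WBP1L on the opposite strand. No source used here says whether the counting used strand.

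SRD5A1 had nearly the same level in both lines, and SRD5A3 was higher in C4-2B. SRD5A1 had 38.5, 36.9 and 39.9 CPM in 22RV1 controls and 37.99, 36.9 and 38.4 CPM in C4-2B controls. The ranges overlapped, and the log2 ratio of 22RV1 to C4-2B was 0.025 as CPM and -0.27 relative to the median gene, so its sign depends on the scaling. SRD5A3 had 42.1, 49.5 and 44.97 CPM in 22RV1 controls and 74.98, 69.2 and 74.3 CPM in C4-2B controls. These ranges were apart, with 22RV1 at 0.625 times C4-2B.

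AKR1C3, which makes testosterone from androstenedione, was a well measured gene in 22RV1 and close to undetected in C4-2B. In 22RV1 it had 20.9, 16.5 and 14.9 CPM with 56-mer, against 16.7, 18.7 and 20.0 CPM in controls. In C4-2B it had 5, 0 and 0 reads with 56-mer, against 7, 0 and 0 reads in controls, so its 12 reads in this line came from 2 of the 6 libraries. The pooled ratio of 22RV1 to C4-2B controls was 92.3, with an exact 95% counting interval of 44.5 to 230.3.

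The androgen-reducing enzymes AKR1C1 and AKR1C2 followed AKR1C3 in being higher in 22RV1, with smaller gaps. AKR1C2 averaged 7.19 ± 0.800 CPM in 22RV1 controls and 1.07 ± 0.263 CPM in C4-2B controls (SD, n = 3 each), a 6.75-fold ratio. AKR1C1 averaged 2.98 ± 0.942 CPM in 22RV1 controls and 0.631 ± 0.606 CPM in C4-2B controls, a 4.73-fold ratio. Its control ranges were apart, but over all libraries of both lines the AKR1C1 values overlapped, the lowest 22RV1 value being 0.655 CPM in 56-mer 1. AKR1C4, the liver member of the family, had 2 reads in 22RV1 controls and none in C4-2B controls.

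The AKR1C genes are near copies of each other, which limits how far their reads can be told apart. Of the 75-base windows of the coding sequence in GENCODE 29, 33.4% of those of AKR1C1 are identical in AKR1C2. Windows shared with any other gene make up 35.5% in AKR1C1, 40.8% in AKR1C2 and 15.3% in AKR1C3. No source used here says how reads that match several genes were assigned, and the split between AKR1C1 and AKR1C2 is uncertain. The summed level of AKR1C1 to AKR1C4 was 32.5, 25.3 and 23.9 CPM in 22RV1 with 56-mer and 26.7, 28.8 and 30.5 CPM in 22RV1 controls. AKR1C3 made up 64.0% ± 1.38 of these reads with 56-mer and 64.3% ± 1.59 in controls (SD, n = 3 each), so its share was nearly constant while the sum varied. In C4-2B the sum was 1.70, 0.799 and 2.12 CPM with 56-mer and 2.19, 1.27 and 2.27 CPM in controls, from 10 to 31 reads per library.

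**Figure D2:**
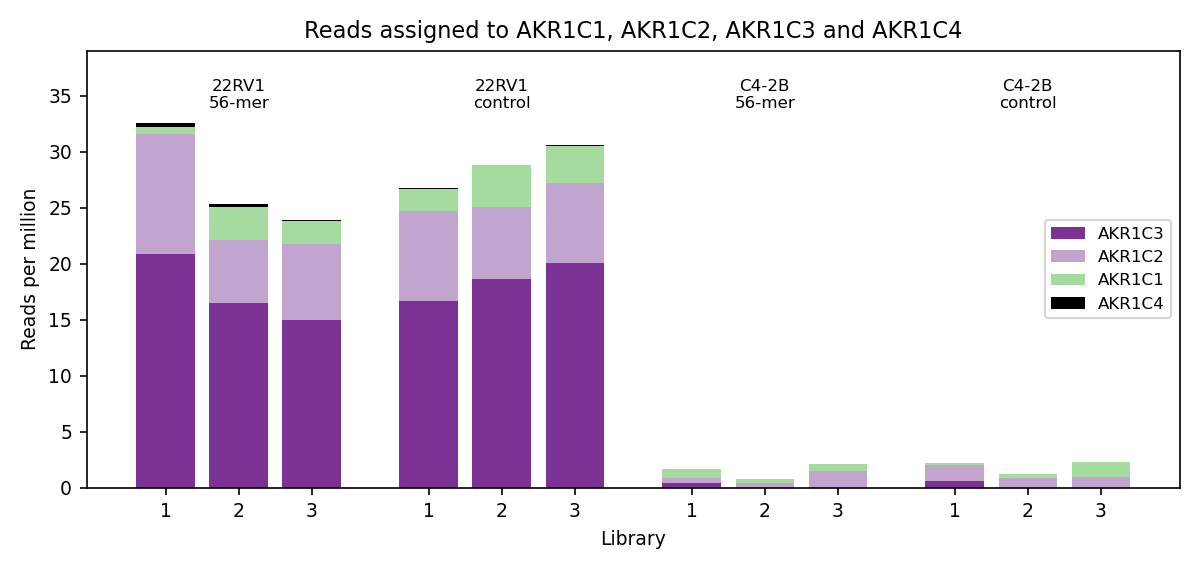
CPM assigned to AKR1C3, AKR1C2, AKR1C1 and AKR1C4, stacked, in each of the 12 libraries, with the 56-mer libraries left of the controls in each line. The 22RV1 bars reach 23.9 to 32.5 and the C4-2B bars stay at or below 2.27.

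Of the enzymes that oxidize androgens, HSD17B2 was essentially undetected, HSD17B4 was abundant in both lines and HSD17B11 was present in both but higher in 22RV1. HSD17B2 had 4 reads in 22RV1 56-mer 3 and 4 reads in C4-2B control 3, and none in the other libraries. HSD17B4 had 163.9, 175.8 and 169.2 CPM in 22RV1 controls and 88.7, 98.8 and 105.6 CPM in C4-2B controls. These ranges were apart, at a ratio of 1.74. HSD17B11 had 36.6, 32.6 and 29.8 CPM in 22RV1 controls and 4.74, 6.83 and 6.75 CPM in C4-2B controls, a 5.40-fold ratio with no overlap. Of its 75-base coding windows in GENCODE 29, 5.4% are shared with AC108516.2 on the same strand. For HSD17B2, 10.6% are shared with AC092142.1 on the opposite strand.

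Divided by the length of all annotated exons (CPM per kilobase), the order of the levels differed between the lines. In 22RV1 controls it ran HSD17B4 (15.9), HSD17B11 (13.6), SRD5A3 (10.3), SRD5A1 (4.98), AKR1C3 (4.07), AKR1C2 (1.11) and AKR1C1 (0.340), with CYP17A1, HSD3B1 and HSD17B2 below 0.1. Neighbours in this order did not overlap down to AKR1C2 and AKR1C1, AKR1C1 overlapped CYP17A1 but lay above HSD3B1 and HSD17B2, and from CYP17A1 down each overlapped the next. With the coding length AKR1C1 did not overlap CYP17A1. In C4-2B controls it ran SRD5A3 (16.5), HSD17B4 (9.16), SRD5A1 (4.90), HSD17B11 (2.51), HSD3B1 (0.835) and AKR1C2 (0.165), with the others below 0.1. Neighbours down to HSD3B1 and AKR1C2 did not overlap, and from AKR1C2 down each overlapped the next. HSD17B4 stood above 82.4% of the tested 22RV1 genes with a length, and SRD5A3 above 79.8% of those of C4-2B. With the longest transcript as the length, SRD5A3 and AKR1C3 became overlapping neighbours in 22RV1. That length also moved HSD17B4 above SRD5A3 in C4-2B, with overlap. The coding length put SRD5A1 above SRD5A3 and HSD17B11 in 22RV1, overlapping SRD5A3. In C4-2B it put SRD5A1 above HSD17B4, without overlap. HSD3B1 and AKR1C2 overlapped in C4-2B with either the longest transcript or the coding length.

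The start regions of the enzymes differ in their content of the dinucleotide CG, which is set here beside the levels in the lines. RefSeq gave 11 start regions (250 bases before to 50 after the start, GRCh38.p14) for 9 of the enzymes, and HSD17B2 had no entry. CG occurred 3 times in the region of AKR1C1, 3 times in that of AKR1C2, 0 times in both of AKR1C3, 1 time in both of HSD3B1 and 3 times in that of CYP17A1. It occurred 33 times in the region of SRD5A1, 31 in that of SRD5A3, 19 in that of HSD17B4 and 18 in that of HSD17B11. The median over 35116 regions of this length was 14, with at most 3 in 24.5% of them and at least 18 in 44.5%. The regions of the AKR1C genes, of HSD3B1 and, for contrast, of SRD5A1 are shown with each CG in capitals, 5′ to 3′ on the gene's strand.
AKR1C1, chr10:4963165-4963464, plus strand: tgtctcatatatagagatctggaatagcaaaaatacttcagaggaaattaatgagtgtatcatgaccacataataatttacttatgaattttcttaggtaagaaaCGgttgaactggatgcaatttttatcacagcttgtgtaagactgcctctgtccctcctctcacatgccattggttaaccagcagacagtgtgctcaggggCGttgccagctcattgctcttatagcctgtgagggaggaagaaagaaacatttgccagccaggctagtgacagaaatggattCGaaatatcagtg
AKR1C2, chr10:5003808-5004107, minus strand: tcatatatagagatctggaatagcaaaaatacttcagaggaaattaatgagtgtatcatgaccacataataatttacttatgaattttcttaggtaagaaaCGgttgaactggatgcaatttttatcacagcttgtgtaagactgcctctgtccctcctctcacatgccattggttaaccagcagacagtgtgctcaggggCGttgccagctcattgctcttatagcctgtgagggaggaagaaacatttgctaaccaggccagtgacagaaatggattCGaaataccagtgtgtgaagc
AKR1C3, chr10:5094164-5094463, plus strand: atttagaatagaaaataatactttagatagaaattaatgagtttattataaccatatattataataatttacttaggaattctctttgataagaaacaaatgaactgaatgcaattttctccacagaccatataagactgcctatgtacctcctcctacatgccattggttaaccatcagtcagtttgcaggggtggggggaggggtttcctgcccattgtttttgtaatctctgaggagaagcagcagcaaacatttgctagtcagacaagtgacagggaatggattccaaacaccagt
HSD3B1, chr1:119506953-119507252, plus strand: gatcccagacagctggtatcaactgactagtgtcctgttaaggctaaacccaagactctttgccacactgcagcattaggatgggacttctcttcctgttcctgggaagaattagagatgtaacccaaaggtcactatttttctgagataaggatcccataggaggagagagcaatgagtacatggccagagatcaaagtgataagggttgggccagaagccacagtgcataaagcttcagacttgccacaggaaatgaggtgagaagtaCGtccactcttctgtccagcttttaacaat
SRD5A1, chr5:6633190-6633489, plus strand: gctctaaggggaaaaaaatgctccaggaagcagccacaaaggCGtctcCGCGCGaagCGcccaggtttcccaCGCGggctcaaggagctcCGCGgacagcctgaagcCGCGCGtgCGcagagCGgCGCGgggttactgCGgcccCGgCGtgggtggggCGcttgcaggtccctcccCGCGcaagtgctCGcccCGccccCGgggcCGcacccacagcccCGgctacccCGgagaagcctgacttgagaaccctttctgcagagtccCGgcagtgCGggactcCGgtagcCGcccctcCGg
The letters of AKR1C1 and AKR1C2 were identical at 93.5% of aligned positions, while AKR1C1 and this region of AKR1C3 shared 71.0%. CCAAT, the box bound by nuclear factor Y, was found on the minus strand of the gene at 77 bases before the start of AKR1C1, 81 before that of AKR1C2 and 86 before that of this AKR1C3 region. It was also in the other AKR1C3 region and in that of HSD17B11, and in 34.6% of all regions on either strand. The antioxidant response core TGACNNNGC (13.3% of all regions) was found among the enzymes in SRD5A3, TATAAA (11.5%) in the other AKR1C3 region, and the androgen receptor half-site AGAACA (14.8%) in none, on either strand. Across the tables, 3074 genes had at most 3 CG in their first listed region, and 26.9% of them passed the filter in either line. Of those that passed, 64.0% were at least 2-fold apart between the lines without overlap, in either direction. Of the 9955 genes with at least 18 CG, 89.6% passed and 48.0% of those were apart in this sense. Among the enzymes, 4 of the 5 with few CG passed and all 4 were apart, against 1 of 4 with many CG. AKR1C1, AKR1C3 and HSD3B1 passed through 1 line only, so the filter itself favoured a difference. The limits of 3 and 18 were set from the enzymes' own values. These counts of enzymes therefore describe the enzymes and support nothing.

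With 56-mer, no enzyme passed the threshold of an adjusted p under 0.05 in either line. The test was limma on log2 of the normalized count plus 1, with Benjamini-Hochberg adjustment over all genes tested. It covered 7 of the 10 enzymes in 22RV1, where 0 were called beside 0.00975% of 20517 genes, and 6 in C4-2B, where 0 were called beside 0.066% of 16657 genes. At an unadjusted p under 0.05 there were also 0 enzymes in both lines, against 3.91% of all genes in 22RV1 and 8.92% in C4-2B. Some other limma fits brought an enzyme under this unadjusted limit. They were HSD17B4 in C4-2B with columns scaled to equal totals (unadjusted p 0.0488, adjusted p 0.545), HSD17B11 in C4-2B in 1 fit of the 12 libraries (unadjusted p 0.0260, adjusted p 0.307), and fits without 1 library for HSD17B4 in C4-2B and AKR1C1 in 22RV1. The recovered reads gave 0 called enzymes as well with edgeR, limma-voom and DESeq2, although DESeq2 gave no adjusted p for 5 of the 6 enzymes in C4-2B. The authors' deposited table gave an adjusted p of 1 for each of the 10 enzymes in both lines. Such counts do not show that the levels were equal, and the intervals of the changes are therefore given.

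**Figure D3:**
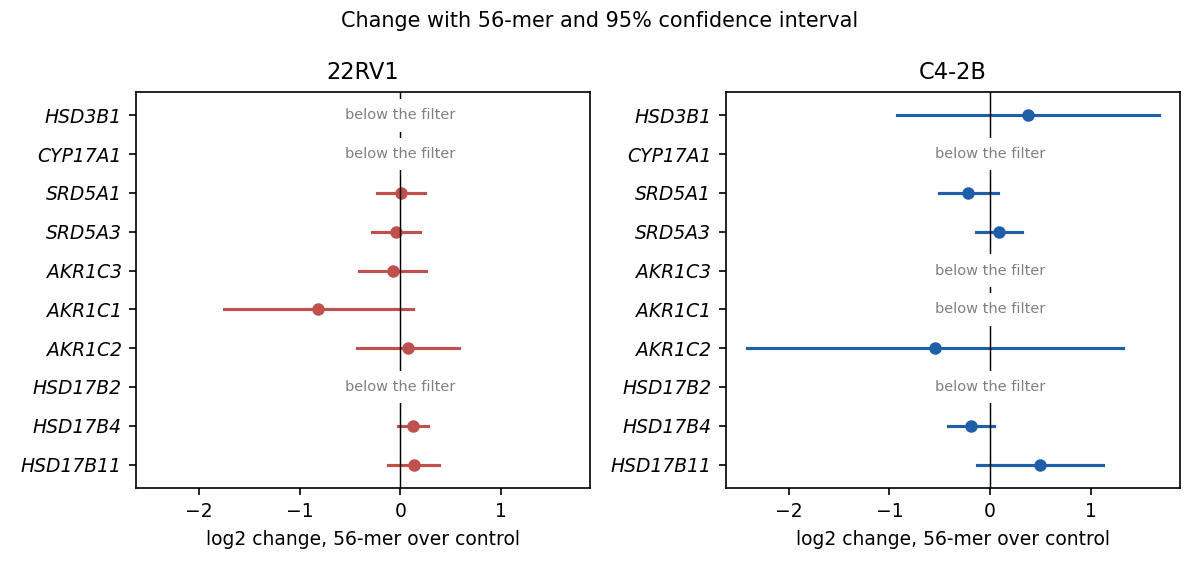
Change with 56-mer in 22RV1 (left) and C4-2B (right) as log2 of 56-mer over control, with the 95% confidence interval from limma, for the enzymes that passed the filter. Every interval crosses 0, and the intervals are wider in C4-2B for HSD17B11, AKR1C2 and HSD3B1 than for SRD5A1, SRD5A3 and HSD17B4.

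SRD5A1, SRD5A3 and HSD17B4 had narrow intervals in both lines, as HSD17B11 had in 22RV1. For SRD5A1, SRD5A3 and HSD17B4 the 95% confidence intervals lay between -0.28 and 0.28 in 22RV1 and between -0.51 and 0.31 in C4-2B (log2 of 56-mer over control). In 22RV1 SRD5A1 had normalized counts of 462.1, 478.2 and 446.3 with 56-mer and 461.0, 443.6 and 476.8 in controls, which overlapped, and its change was 0.0056 ± 0.12 (log2 ± SE). In C4-2B SRD5A1 had normalized counts of 389.2, 364.4 and 381.9 with 56-mer, against 446.5, 431.1 and 443.9 in controls. The 3 treated libraries lay below the 3 controls, as did those of 7.08% of the genes tested in this line. The SRD5A1 change in C4-2B was -0.22 ± 0.14, with an adjusted p of 0.683. The test of the difference between the lines gave 0.22 ± 0.16 for SRD5A1 (22RV1 minus C4-2B), with an adjusted p of 0.755.

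SRD5A3 overlapped between groups in both lines. In 22RV1 its normalized counts were 565.6, 563.0 and 463.1 with 56-mer and 503.9, 594.9 and 537.5 in controls, a log2 change of -0.043 ± 0.12. In C4-2B they were 838.3, 892.9 and 978.2 with 56-mer and 881.2, 808.7 and 857.3 in controls, a log2 change of 0.087 ± 0.11.

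HSD17B4 had opposite signs in the lines, without passing any adjusted threshold. In 22RV1 its normalized counts were 2320, 2177 and 2169 with 56-mer, against 1962, 2112 and 2023 in controls. The 3 treated 22RV1 libraries lay above the 3 controls, as did those of 4.45% of the genes tested in 22RV1. In C4-2B they were 1122, 1005 and 882 with 56-mer, against 1043, 1154 and 1219 in controls, and these overlapped. The log2 changes were 0.13 ± 0.075 in 22RV1 (adjusted p = 0.9996 in limma) and -0.19 ± 0.11 in C4-2B (adjusted p = 0.653 in limma). The difference of the changes, 22RV1 minus C4-2B, was 0.32 ± 0.13 with a 95% confidence interval of 0.046 to 0.59. Its unadjusted p in limma was 0.0237 and its adjusted p 0.612, and 7.9% of the 15527 genes in that test had an unadjusted p under 0.05. HSD17B4 was the 1 of 5 enzymes tested for this difference with such a p, and 0 of them passed the adjusted threshold in limma, edgeR or limma-voom, nor the 1 that had an adjusted p in DESeq2, beside 0% of all genes in limma. After correction of each library for GC content and length, its difference was 0.16, with an unadjusted p of 0.193.

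HSD17B11 had the largest positive estimate in C4-2B, at a low level. In 22RV1 it had 439.8, 444.1 and 413.6 with 56-mer and 438.0, 391.8 and 356.3 in controls, which overlapped, with a log2 change of 0.13 ± 0.13. In C4-2B its normalized counts were 91.2, 134.5 and 79.9 with 56-mer, against 55.7, 79.8 and 77.9 in controls. On this scale the groups were separated by the small gap between 79.9 and 79.8, while in CPM they overlapped (lowest 56-mer library 6.68 CPM, highest control 6.83 CPM), and 7.59% of the genes tested in C4-2B were separated in this direction. The log2 change of HSD17B11 in C4-2B was 0.49 ± 0.31, with an interval of -0.14 to 1.12 and an adjusted p of 0.672 in limma. In 22RV1 4.58% of the genes were separated with 56-mer lower, and no enzyme was among them.

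**Figure D4:**
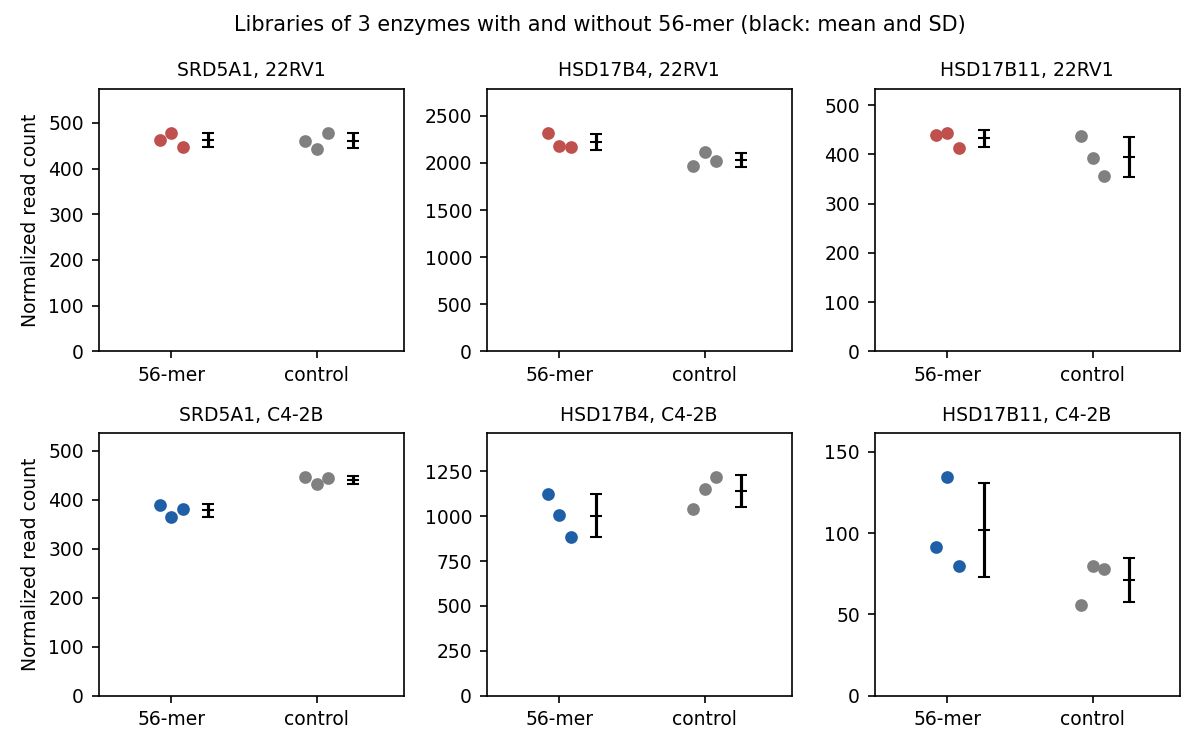
Normalized read counts of SRD5A1, HSD17B4 and HSD17B11 in each library of 22RV1 (top) and C4-2B (bottom), 56-mer left and control right, with the mean and SD of 3 libraries in black. The groups do not overlap for SRD5A1 in C4-2B, HSD17B4 in 22RV1 and, on this scale but not in CPM, HSD17B11 in C4-2B.

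AKR1C3 did not move beyond its spread in 22RV1. Its normalized counts were 256.1, 199.5 and 179.4 with 56-mer and 199.98, 224.3 and 239.3 in controls, a log2 change of -0.076 ± 0.17 with an interval of -0.41 to 0.26. AKR1C2 had 131.1, 68.3 and 82.2 with 56-mer and 96.0, 77.1 and 85.3 in 22RV1 controls, a log2 change of 0.073 ± 0.25. AKR1C1 had 8.03, 35.5 and 23.9 with 56-mer and 23.0, 44.7 and 39.6 in 22RV1 controls. Its log2 change was -0.81 ± 0.47 with an interval of -1.75 to 0.13, the most negative estimate among the enzymes.

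The AKR1C1 value rested on the 22RV1 library 56-mer 1, which was low in AKR1C1 and high in AKR1C2. Without that library the log2 change of AKR1C1 was -0.23, and that of AKR1C2 was -0.19. Added together, AKR1C1 and AKR1C2 gave 11.4, 8.59 and 8.83 CPM with 56-mer and 9.94, 10.1 and 10.5 CPM in 22RV1 controls, which overlapped. The sum of AKR1C1 to AKR1C4 changed by -0.068 ± 0.14 (log2 ± SE) in 22RV1 and by -0.31 ± 0.63 in C4-2B, and the difference of these changes was 0.25 ± 0.46. The part that the sharing of reads had in the AKR1C1 value was not tested.

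The wide intervals in C4-2B belonged to the enzymes with few reads. AKR1C2 had normalized counts of 5.88, 4.77 and 17.5 with 56-mer and 16.1, 10.3 and 11.0 in C4-2B controls, a log2 change of -0.55 ± 0.91. HSD3B1 had 30.4, 21.0 and 24.4 with 56-mer and 41.8, 6.84 and 22.9 in C4-2B controls, a log2 change of 0.38 ± 0.63. Its sign turned on the low library, control 2, without which the change was -0.30. AKR1C1 and AKR1C3 did not pass the filter in C4-2B, HSD3B1 did not in 22RV1, and CYP17A1 and HSD17B2 did not in either line.

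The rest of the steroid pathway was set beside these enzymes through 7 lists with 60 genes. With 56-mer, 0 of their 40 genes tested in 22RV1 and 0 of the 36 tested in C4-2B passed the adjusted threshold in limma. At an unadjusted p under 0.05 there were 0 of 40 in 22RV1, beside 3.91% of all genes tested, and 7 of 36 in C4-2B, beside 8.92%. The median log2 change of the lists together was 0.020 in 22RV1, beside -0.0026 over all genes tested, and 0.015 in C4-2B, beside -0.011. Of the 7, TSPO, a protein of the outer mitochondrial membrane that binds cholesterol, had a log2 change of 0.0059 ± 0.0999 in 22RV1 and 0.23 ± 0.086 in C4-2B, with an adjusted p of 0.456 in C4-2B from limma. PAPSS1, which makes the sulfate donor for steroid sulfation, had -0.0065 ± 0.091 in 22RV1 and -0.50 ± 0.20 in C4-2B, with an adjusted p of 0.483 in C4-2B. In the 9 targets of the transcription factor NRF2, a list taken because AKR1C genes are known targets as well, 0 of 9 tested in 22RV1 and 0 of 8 tested in C4-2B had an unadjusted p under 0.05, beside the same 3.91% and 8.92% of all genes, so that 0 among so few genes says little about these targets.

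Levels of the wider pathway in control cells also differed between the lines. CYB5A, the cytochrome that aids the lyase step of CYP17A1, averaged 33.5 ± 3.66 CPM in 22RV1 and 214.4 ± 23.7 CPM in C4-2B (SD, n = 3 each, as for all means here). POR, the electron donor of the microsomal cytochromes P450, averaged 83.0 ± 4.52 CPM in 22RV1 and 106.9 ± 2.10 CPM in C4-2B. The classical isoforms were missing or nearly so: SRD5A2 and HSD17B3 had no read in the controls of either line, and HSD3B2 had 2 reads in 22RV1 and 1 in C4-2B. The dehydrogenase HSD17B12, which also serves fatty acid elongation, averaged 51.1 ± 4.60 CPM in 22RV1 and 18.7 ± 2.44 CPM in C4-2B. HSD17B10, a mitochondrial dehydrogenase, averaged 53.9 ± 1.91 CPM in 22RV1 and 130.0 ± 3.20 CPM in C4-2B, and HSD17B1, an enzyme of oestradiol formation, 30.9 ± 4.96 CPM in 22RV1 and 57.6 ± 9.03 CPM in C4-2B.

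Other members of these lists showed the same mix of directions. RDH11, a retinal reductase of the prostate, averaged 91.2 ± 4.51 CPM in 22RV1 controls and 159.2 ± 8.62 CPM in C4-2B controls. SULT2B1, a sulfotransferase of cholesterol and related steroids, averaged 3.77 ± 1.12 CPM in 22RV1 and 47.6 ± 2.16 CPM in C4-2B, while PAPSS1 averaged 89.8 ± 5.83 CPM in 22RV1 and 24.1 ± 0.793 CPM in C4-2B. Among other aldo-keto reductases, AKR1A1 averaged 47.2 ± 2.36 CPM in 22RV1 and 239.4 ± 17.4 CPM in C4-2B, whereas AKR7A2 averaged 59.0 ± 5.22 CPM in 22RV1 and 65.8 ± 3.88 CPM in C4-2B. Among the NRF2 targets, TXNRD1, thioredoxin reductase, averaged 505.1 ± 30.9 CPM in 22RV1 and 162.2 ± 10.4 CPM in C4-2B. Of the other targets reported, GCLC (2.84-fold), GCLM (2.00-fold), NQO1 (1.56-fold) and SLC7A11 (1.46-fold) were also higher in 22RV1. So was SRXN1, with 47 reads in 22RV1 controls and 2 in C4-2B controls. Over all 21647 genes that passed the filter in either line, 40.2% were at least 2-fold higher in 22RV1 controls without overlap. HMOX1 was nearly level, at 24.0 ± 2.22 CPM in 22RV1 and 23.0 ± 3.89 CPM in C4-2B. ME1 was lower in 22RV1, at 32.2 ± 2.26 CPM, against 64.5 ± 4.50 CPM in C4-2B.

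**Figure D5:**
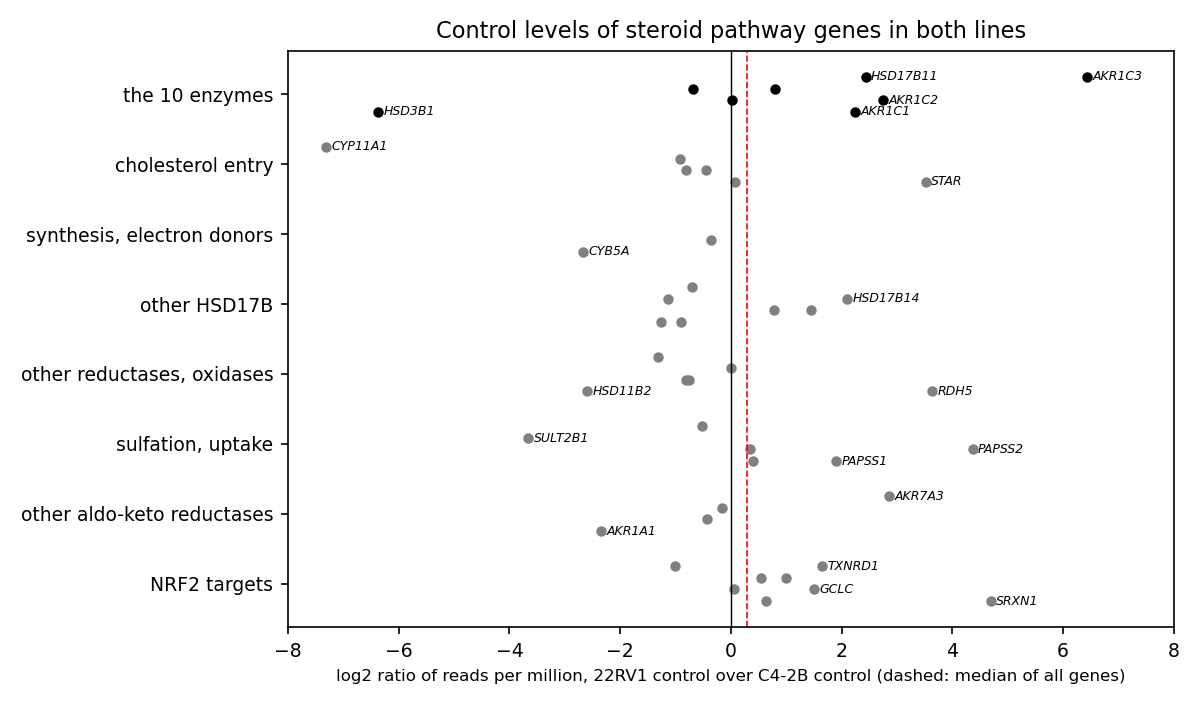
Control levels of the 10 enzymes (black) and of reported genes of 7 related lists (grey) as the log2 ratio of CPM, 22RV1 over C4-2B, for genes with reads in both lines and at least 30 reads over the 6 control libraries. The solid line is a ratio of 1 and the dashed line the median of all genes (0.29). AKR1C3 lies furthest right at 6.44, and HSD3B1 lies far to the left at -6.38, with CYP11A1 beyond it at -7.31. CYP17A1 and HSD17B2 have no ratio and are not drawn.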

How the data were processed

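Total RNA of 2 cell lines (12 libraries) was isolated with a column kit, and a provider did the sequencing, per the labels' protocols. The authors deposited 1 table per line of normalized values, which are signal, that is, read counts over a size factor: 100% of the values of a library are whole multiples of 1 step within 0.01. The authors also deposited comparison tables with log2 fold changes, a score (the change over its standard error) and p-values, per the file headers. DESeq is named, with no version, by the submitters' processing notes. For the aligner, counting tool, build and annotation, no source used here gives a name. Replicate numbers follow the order of the records, and nothing in the labels ties a library to a culture date, so p-values measure the spread between these libraries. An entry without a symbol, with 0% of the signal, was left out.

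Within each line, limma 3.58.1 (R 4.3.3; trended, robust eBayes) tested log2(normalized count + 1) between 56-mer and control. The test was two-sided, used genes that reached 10 in 3 or more of 6 libraries, and was adjusted over all of them by Benjamini-Hochberg with a threshold of 0.05. Adding 1 pulls the fold change of low genes toward 0, but the estimates were not all smaller than those the authors deposited. The log2 change of HSD3B1 in C4-2B was 0.38 in limma and 0.081 from the authors, and that of AKR1C1 in 22RV1 -0.81 and -0.69. For AKR1C2 it was -0.55 and -0.41 in C4-2B, and the other way in 22RV1, at 0.073 and 0.13. The difference between the lines was tested in 1 fit of 12 libraries. Changes have SE and intervals from limma, means have SD, and the fit was tested on simulated data. CPM and reads come from the recovered counts, and lengths and shared windows from GENCODE 29, which held 91.4% of the symbols. Intervals of ratios of pooled reads are exact binomial (Clopper-Pearson), at 95%, for counting error only, and reads without molecular identifiers are not independent molecules. Start regions come from RefSeq (GRCh38.p14). Named are the 10 enzymes, 4 classical isoforms, and the 2 tested genes of each list with the highest control mean per line; not all of these are given values, and 1 gene of the NRF2 list, counted in the lists, is not reported here. The members and lists were chosen with earlier results of these data known. Alternatives included edgeR 4.0.16, DESeq2 1.42.0, limma-voom, other normalizations, filters, pseudocounts (0.1 and 10) and lengths, and each library left out. The correction for GC content and length, the coding length and the scaling to the median gene were chosen after seeing the data.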

Additional observations from a re-analysis of the deposited data

How the results depend on the processing

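Of 355 alternative fits of single enzymes, 346 gave an adjusted p, none of them called an enzyme, and the lowest adjusted p was 0.242; the other 9, all from DESeq2 and with an unadjusted p above 0.05, gave none. The sign held in 344 of the 355. The unadjusted p fell under 0.05 for HSD17B4 in C4-2B without 56-mer 1 (0.0160), and for AKR1C1 in 22RV1 without control 1 (0.0408) or 56-mer 2 (0.0209). The 11 sign changes concerned estimates near 0 or of few reads. SRD5A1 in 22RV1 became -0.011 with columns scaled to equal totals, -0.021 with the correction for GC content and length and -0.00092 in limma-voom. Over the fits that left out 1 library each, the log2 change in 22RV1 ran from -0.021 to 0.031 for SRD5A1 (below 0 without control 2 or 56-mer 2), from -0.098 to 0.052 for SRD5A3 (above 0 without control 2 or 56-mer 3), from -0.19 to 0.27 for AKR1C2 (below 0 without control 2 or 56-mer 1) and from -0.22 to 0.035 for AKR1C3 (above 0 without 56-mer 3). For HSD3B1 in C4-2B it ran from -0.30 to 0.92 (below 0 without control 2). Leaving out each library in turn, the summed AKR1C genes ranged from -0.21 to 0.026 in 22RV1 (above 0 without 22RV1 56-mer 3), from -0.58 to 0.078 in C4-2B (above 0 without C4-2B 56-mer 2) and from -0.15 to 0.51 for the difference (below 0 without C4-2B 56-mer 2). The HSD17B4 difference between lines ran from 0.16 to 0.40 over 24 alternatives, with an unadjusted p of 0.0030 to 0.193 (under 0.05 in 19) and an adjusted p of 0.242 to 0.886. The 5 enzymes apart between lines stayed 5 on normalized counts, relative to the median gene and without each control. Relative to the median gene the log2 ratio of 22RV1 to C4-2B was -0.27 for SRD5A1, -0.97 for SRD5A3 and 0.50 for HSD17B4. In the order per kilobase, 2 enzymes changed rank in 22RV1 and 4 in C4-2B with the longest transcript, and 2 in 22RV1 and 2 in C4-2B with the longest coding sequence. The cause of these shifts was not tested. No paired analysis was possible because titles number the 6 libraries of a line in 1 run and tie no treated library to a control. The summed AKR1C genes were not run under the correction for GC content and length, and in C4-2B they fell below the mean of 50, as did their difference. Depth limits CYP17A1 and HSD17B2 in both lines, HSD3B1 in 22RV1 and AKR1C3 and AKR1C1 in C4-2B.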

Other observations

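Several genes of the wider steroid pathway, chosen after their values were seen, were found in the controls of 1 line and hardly in those of the other. CYP11A1, the enzyme that cuts the cholesterol side chain, had 1 read in 22RV1 and 161 reads in C4-2B. AKR1D1, a steroid reductase of the liver, had 0 reads in 22RV1, which allows up to 0.0802 CPM, and 78 reads in C4-2B. The organic anion transporters SLCO1A2 and SLCO2B1, which carry steroid conjugates, had 162 and 64 reads in 22RV1 (SLCO1A2 first) and 0 reads each in C4-2B, which allows up to 0.0861 CPM. PAPSS2, a partner of PAPSS1, averaged 13.2 ± 2.09 CPM in 22RV1 and 0.641 ± 0.218 CPM in C4-2B (SD, n = 3 each). HSD11B2, which inactivates cortisol and was chosen in the same way, was found in both lines. It averaged 15.6 ± 0.751 CPM in 22RV1 and 93.9 ± 3.17 CPM in C4-2B (SD, n = 3 each). No test was made between the lines.

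Reads of CYP17A1 came from 22RV1 56-mer 1, 22RV1 control 1 and C4-2B 56-mer 1, with 1, 10 and 3 reads, and those of AKR1C3 in C4-2B from 56-mer 1 and control 1 alone, with 5 and 7 reads. Library numbers follow the order of the records and pair no samples.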
